A study of Mus musculus with 8 samples.

Results

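Immune checkpoints and costimulatory receptors were examined as a set of 10 genes, Pdcd1, Cd274, Lag3, Tigit, Ctla4, Havcr2, Icos, Cd28, Tnfrsf4 and Cd200r1, which were taken by symbol from the 32285 genes listed in each count matrix. The data were single-cell RNA-seq (scRNAseq) profiles of liver cells from 8 female C57BL/6J mice aged 9 weeks, 1 library per mouse. The 4 Control mice (replicates 1 to 4) were left untreated, and the 4 Beta-glucan (BG) mice (replicates 5 to 8) had received 1.2 mg odetiglucan (Imprime PGG), a soluble yeast-derived polysaccharide, intravenously 2 days earlier. No mouse carried a tumor or a genetic change. Leukocytes were enriched with beads against CD45, and cells of the remaining fraction that collected above a Ficoll layer were added back to recover more Kupffer cells (KCs), so the share of each cell type follows this enrichment as well as the tissue.

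A T cell needs a signal through its antigen receptor and a costimulatory signal, of which CD28 binding to CD80 or CD86 on an antigen-presenting cell is the best known. ICOS and OX40 (the product of Tnfrsf4) add to that signal after activation, and inhibitory receptors, or checkpoints, restrain it: CTLA-4 competes with CD28 for its ligands, PD-1 (Pdcd1) is engaged by PD-L1 (Cd274) or PD-L2, and LAG-3, TIGIT and TIM-3 (Havcr2) bind further partners. CD200R1 passes an inhibitory signal from CD200. In the liver, PD-L1 on sinusoidal endothelial cells and KCs is known for restraining T cells that enter with portal blood.

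In the GENCODE vM21 annotation of GRCm38, all 10 members were protein-coding. Cd28 (chr1:60716800-60773359), Ctla4 (chr1:60887000-60915832) and Icos (chr1:60977927-61000320) lay next to each other on the plus strand of chromosome 1, and Pdcd1 (chr1:94038305-94052553) lay on the minus strand of the same chromosome. The plus strand also held Cd274 (chr19:29367455-29388095), Havcr2 (chr11:46454935-46481255), Tnfrsf4 (chr4:156013843-156016612) and Cd200r1 (chr16:44765736-44794978). Lag3 (chr6:124904361-124911705) and Tigit (chr16:43648867-43664146) lay on the minus strand. Ctla4 and Icos each overlapped 1 further annotated gene on the same strand, so reads of the pair may not be separable there, and Cd274 overlapped 1 on the opposite strand. Counts included intronic reads, and no comparison is made between the levels of different genes.

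The libraries held between 39612380 and 46211839 UMIs (unique molecular identifiers, each counting 1 captured RNA molecule) in Control and between 44184117 and 60654583 in BG mice. Of 127557 barcodes, 48465 had 200 to 2500 detected genes and at most 30% mitochondrial UMIs and were kept as cells. These were 6833, 6996, 7790 and 6222 per Control and 4330, 5780, 4800 and 5714 per BG mouse. A limit of 6000 genes would have kept 7409, 7491, 8397 and 6794, and 4648, 6863, 5731 and 6483. The limit of 2500 genes thus removed more cells from BG replicates 6, 7 and 8 than from any Control mouse. The median UMI count of a kept cell was 2321.5 to 2928 in Control and 2513 to 3589.5 in BG mice. BG replicate 5 stood apart before this filter, with 66.6% mitochondrial UMIs. Any 2 libraries shared 5 to 26 barcodes among their kept cells. Calls that were lost without BG replicate 5 are named with the result.

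Cells were placed in 21 exclusive classes by UMIs of marker genes, none of them a member, and each class name stands for that gate. A "-like" is implied throughout. In all 34649 cells were classed, and 13816 (28.5%) were left out. Of the 28028 cells with 3 or more UMIs of T-cell receptor and CD3 genes, 9776 (34.9%) were left out, 6232 for UMIs of another lineage and 3544 for fewer than 2 UMIs of Cd3d, Cd3e and Trac or for an Ncr1 UMI, so the T-lineage classes hold part of these cells. The share left out was 25.2% to 40.4% in Control and 29.6% to 39.8% in BG libraries. T-lineage cells, which had at least 3 UMIs of T-cell receptor and CD3 genes, were divided into NKT cells (6919 cells, with Klrb1c or Zbtb16), Cxcr6 CD4 T cells (615), Cxcr6 T cells without Cd4 or Cd8 UMIs (3076), naive CD4 T cells (356), naive CD8 T cells (538), effector CD8 T cells (272), regulatory T cells with a Foxp3 UMI (57) and T cells that met none of these gates (5516, other T cells). The further classes with the most members' UMIs were ILC1 (group 1 innate lymphoid cells, 903), NK cells (751), plasmacytoid dendritic cells (pDCs, 1080), B cells (8371), endothelial cells (4835), KCs (331), conventional dendritic cells of type 1 (cDC1s, 192) and type 2 (cDC2s, 132), patrolling monocytes (199), other monocytes and macrophages (217) and neutrophils (201). For 18 classes at least 3 libraries per group held 10 cells or more. Regulatory T cells, gamma delta T cells and basophils did not reach this and are described only as sums over mice. ILC1s were led by Gzmc, Klrb1b, Xcl1 and Cd200r2, and Ncr1 was the sole marker of the class among its 10 leading genes. Levels are given as CPM, the UMIs of a gene relative to all UMIs of its class in that mouse, after TMM scaling over all classes together.

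The 10 genes were found in different compartments of the liver. Cd28, Icos, Ctla4, Tnfrsf4 and Pdcd1 had their highest levels in T-lineage classes, Lag3 in pDCs and Havcr2 in cDC1s. Cd200r1 and Tigit were highest in ILC1s and Cd274 in neutrophils. For Cd274, B cells, KCs and other monocytes and macrophages came next among the tested classes. Over all classes Cd28 gave 24900 UMIs, Icos 6374, Cd274 2511, Cd200r1 1099, Lag3 896, Ctla4 771, Tnfrsf4 393, Havcr2 363, Pdcd1 251 and Tigit 48. These totals set how finely each gene could be followed.

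**Figure D1:**
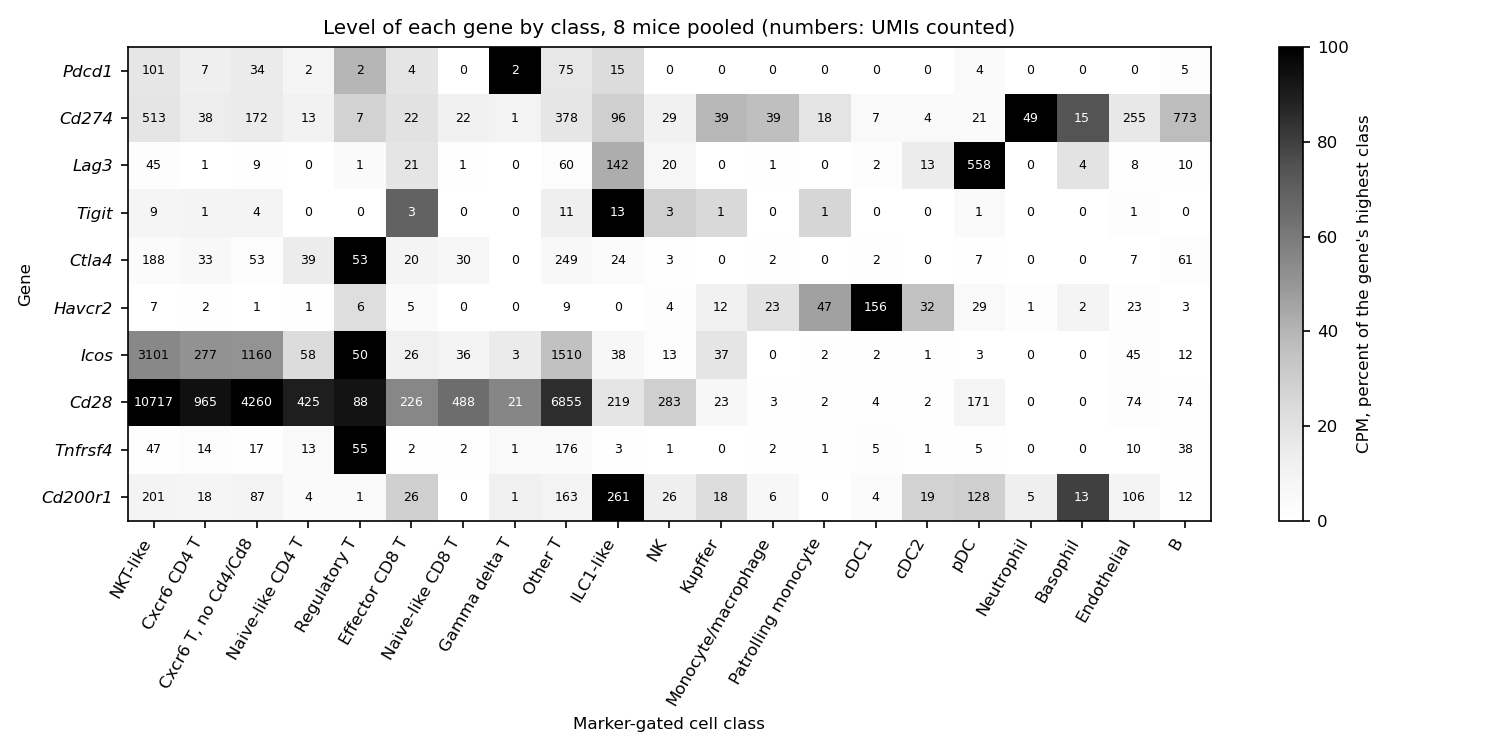
Heat map of the 10 genes (rows) over the marker-gated classes (columns), with CPM of the 8 mice pooled shown as a percent of the gene's highest class and the number of UMIs printed in each field. Darker fields are higher: the Cd28 row is dark over the CD4, NKT and other T-cell columns, Lag3 is darkest in pDCs, Havcr2 in cDC1s and Cd200r1 in ILC1s, and the darkest Pdcd1 field, gamma delta T cells, rests on 2 UMIs.

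CD28 is the costimulatory receptor that most resting T cells carry. Its mean level over the 8 mice was 465 ± 81.2 CPM (SD, n = 8) in naive CD4 T cells, 459 ± 77.3 in Cxcr6 T cells without Cd4 or Cd8, 453 ± 64.0 in NKT cells, 434 ± 78.6 in Cxcr6 CD4 T cells and 412 ± 75.3 in other T cells. It was 365 ± 153 CPM in naive and 243 ± 71.1 in effector CD8 T cells. Outside the T lineage it was 127 ± 29.5 CPM in NK cells, 78.0 ± 33.5 in ILC1s and 40.5 ± 10.5 in pDCs. From naive CD4 to effector CD8 T cells no neighbours in this order differed at an unadjusted p under 0.05 (two-sided exact sign-flip test over mice). Effector CD8 T cells exceeded NK cells, and NK cells exceeded ILC1s, in 7 of 8 mice each (exact p = 0.0156, adjusted p = 0.380 over 170 pairs of neighbours). The Thy1 profile, that of a surface glycoprotein of T cells, was the closest to Cd28 of 7229 candidate genes (Pearson's r = 0.99 across the means of 18 classes), followed by Lat, an adaptor of the T-cell receptor (r = 0.95), and Gm2682 (r = 0.95). These correlations describe class means that share 8 libraries.

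The share of cells with a Cd28 UMI was 66.9% of NKT cells in Control and 66.8% in BG mice, at median depths of 2804 and 3469 UMIs. Thinning to 1500 UMIs, which left out the cells below that depth and kept 3661 and 3159 NKT cells, gave 47.9% and 41.8%. In B cells, which should lack Cd28, 0.612% and 0.730% of cells had a UMI at median depths of 1732 and 1802, and in endothelial cells 1.19% and 0.894% at 2235 and 2556.

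After BG, Cd28 estimates lay below 0 in all 10 classes in which the gene could be tested, and none was called. In 2 of them the direction was not firm: leaving out 1 library gave estimates of up to 0.16 in pDCs, where the mean levels were 39.5 CPM in Control and 41.5 CPM in BG mice, and 0.03 in naive CD4 T cells. In NKT cells Cd28 was at 492, 463, 529 and 515 CPM in Control and at 365, 482, 368 and 413 CPM in BG mice. BG replicate 6 overlapped the Control mice, and the other 3 BG mice lay below all of them. The group means were 500 ± 28.8 and 407 ± 54.5 CPM (SD, n = 4 each), and the log2 fold change was -0.27 (95% interval from -0.47 to -0.07), with an edgeR quasi-likelihood adjusted p of 0.138. Here and in what follows p was adjusted over all genes tested in the class, and fold changes come from a fit within the class whose scaling differs slightly from that of the printed levels.

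Effector CD8 T cells had Cd28 levels of 271, 328, 251 and 344 CPM in Control and 188, 133, 207 and 219 CPM in BG mice. Every BG mouse lay below every Control mouse, as for 4.41% of the genes tested in this class. With 10 to 40 Cd28 UMIs per mouse, the log2 fold change was -0.64 (95% interval from -1.09 to -0.19, edgeR adjusted p = 0.381). In naive CD8 T cells the Control mice stood at 362, 257, 535 and 627 CPM and the BG mice at 412, 286, 183 and 254 CPM. The groups overlapped, and the log2 fold change was -0.66 (95% interval from -1.10 to -0.23, edgeR adjusted p = 0.281). Without the filter on low counts this pair was called, at -0.68.

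Cxcr6 T cells without Cd4 or Cd8 showed 478, 449.5, 572 and 554 CPM of Cd28 in Control against 382, 480.3, 374 and 383 in BG mice. BG replicate 6 was again the highest BG mouse and the sole one above any Control mouse. This gave a log2 fold change of -0.33 (95% interval from -0.55 to -0.10, edgeR adjusted p = 0.124). In Cxcr6 CD4 T cells the log2 fold change was -0.36 (from -0.66 to -0.05, adjusted p = 0.239) and in other T cells -0.27 (from -0.51 to -0.04, adjusted p = 0.266). ILC1s stood at 93.6, 67.3, 87.2 and 124 CPM in Control and 112, 46.5, 22.6 and 70.4 CPM in BG mice, overlapping widely, with a log2 fold change of -0.70 (from -1.23 to -0.18, adjusted p = 0.272). For the remaining classes the estimates were -0.22 in NK cells, -0.10 in naive CD4 T cells and -0.04 in pDCs, with adjusted p of 0.636, 0.982 and 0.996. With all T-lineage cells summed, a grouping added after the results by class were known, Cd28 was at -0.28 (from -0.49 to -0.07, adjusted p = 0.142).

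Summed levels of other T-cell and of stress-related genes are given here as group ranges and were not compared with Cd28 mouse by mouse. The summed level of the 8 T-cell marker genes, all of them detected, was 5159 to 6047 CPM in Control and 4897 to 5053 CPM in BG mice in NKT cells. It was 5235 to 6065 and 4693 to 5097 CPM in Cxcr6 T cells without Cd4 or Cd8, and 2299 to 2637 and 1629 to 2145 CPM in ILC1s. In effector CD8 T cells it was 5009 to 6210 and 4724 to 5343 CPM. The groups overlapped in effector CD8 T cells and not in the others. Of single genes, 9.47% had groups without overlap in NKT cells and 6.87% over all tested classes. The sum of 8 immediate early genes, which respond within minutes to handling as well as to receptor signals, was 5110 to 6040 CPM in Control and 3547 to 4118 CPM in BG mice in NKT cells, and 5604 to 5977 and 3848 to 4233 CPM in B cells. The part of either in the Cd28 values was not tested.

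**Figure D2:**
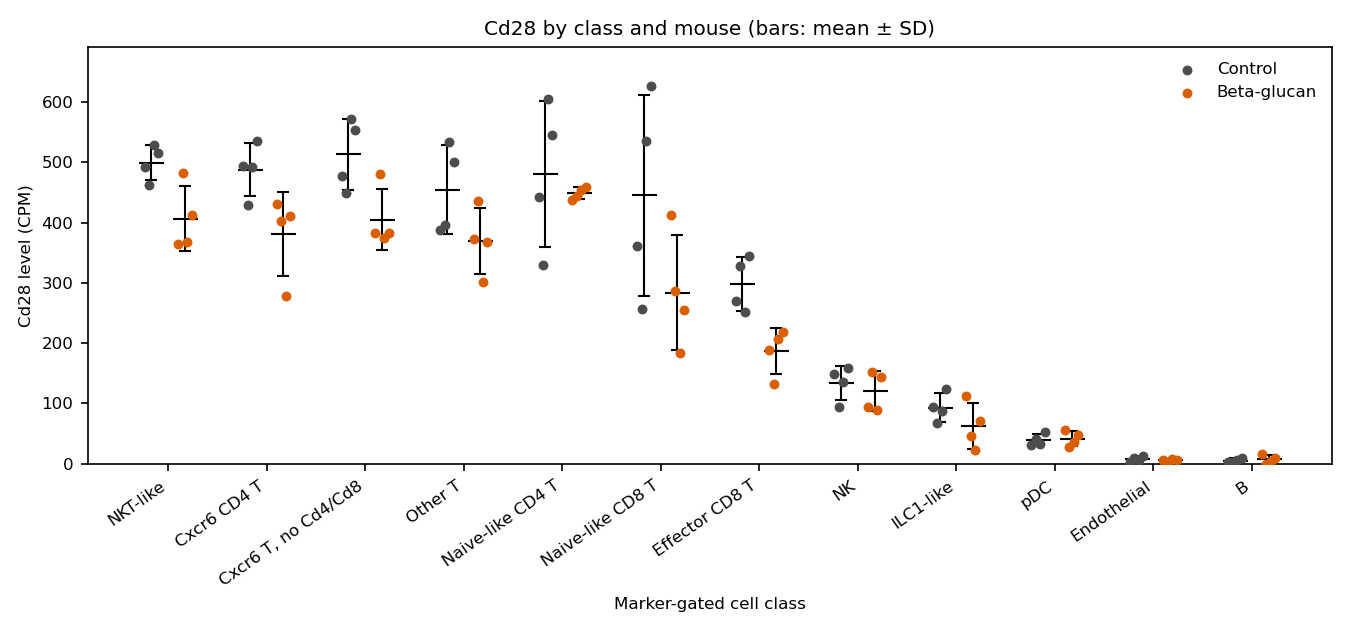
Cd28 level (CPM, linear axis) by marker-gated class, 1 point per mouse, with bars for the mean ± SD of the Control and the Beta-glucan mice. In effector CD8 T cells the Control mice (251 to 344 CPM) all lie above the BG mice (133 to 219 CPM), and in the other classes the groups overlap.

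ICOS, a relative of CD28, sustains help from activated CD4 T cells and is abundant on regulatory T cells. Its pooled level was highest in regulatory T cells, at 245 CPM (50 UMIs in 57 cells, exact Poisson 95% interval from 182 to 323 CPM, covering counting error alone). Among the tested classes NKT cells had 134 ± 16.3 CPM (SD, n = 8), Cxcr6 T cells without Cd4 or Cd8 127 ± 23.3, Cxcr6 CD4 T cells 124 ± 32.2 and other T cells 90.9 ± 10.2. The first 3 of these gave no difference between neighbours (unadjusted exact sign-flip p of 0.109 and 0.641), while Cxcr6 CD4 T cells exceeded other T cells in 7 of 8 mice (mean difference of 0.40 ± 0.33 on the log2(CPM + 1) scale, unadjusted p = 0.0156 by a two-sided exact sign-flip test over mice, adjusted p = 0.380). KCs also gave Icos UMIs, at 16.5, 73.3 and 55.2 CPM in the 3 Control libraries with 10 KCs or more and 58.4, 0, 35.9 and 47.1 CPM in BG mice, on 0 to 11 UMIs per mouse. In the KC class the 8 T-cell marker genes summed to 37.6 to 66.6 CPM in Control and 0 to 95.6 CPM in BG mice, with Cd5 at 0. Art2b, which encodes an ectoenzyme of T cells, had the profile most like that of Icos (r = 0.93 across 18 class means), before Tasp1 (r = 0.91) and Lysmd2 (r = 0.91).

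In NKT cells Icos was at 119.7, 138, 161 and 149.6 CPM in Control and at 127, 136, 111 and 128 CPM in BG mice. The groups overlapped, and the log2 fold change was -0.15 (95% interval from -0.37 to 0.06, edgeR adjusted p = 0.507). In the other 3 classes tested the estimates were -0.20 in Cxcr6 CD4 T cells, -0.11 in Cxcr6 T cells without Cd4 or Cd8 and -0.12 in other T cells, with intervals that reached from -0.64 to 0.23 at the widest. The direction was not firm: the NKT estimate was 0.01 when cells were limited to at most 10% mitochondrial UMIs.

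OX40, encoded by Tnfrsf4, is a member of the tumor necrosis factor receptor family that prolongs T-cell survival. Regulatory T cells held 269 CPM (55 UMIs, exact Poisson 95% interval from 203 to 350 CPM), and the highest mean of a tested class was 14.8 ± 16.2 CPM (SD, n = 8), in naive CD4 T cells. Tnfrsf4 could be tested in other T cells alone, where the Control mice stood at 18.4, 10.1, 5.40 and 11.8 CPM and the BG mice at 10.2, 6.92, 7.40 and 12.3 CPM. The ranges overlapped almost fully. An estimate of -0.31 was obtained (95% interval from -0.93 to 0.31, edgeR adjusted p = 0.713), and it lay between -0.55 and 0.06 when 1 library was left out. Twistnb (r = 0.77 across 18 class means), Phf11c (r = 0.76) and Kcnn4 (r = 0.75) had the profiles most like that of Tnfrsf4.

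CTLA-4 was highest in the same class, of which Tnfrsf4 and Ctla4 were leading genes after Foxp3. Regulatory T cells held 259 CPM (53 UMIs, exact Poisson 95% interval from 194 to 339 CPM), against 47.8 ± 38.3 CPM (SD, n = 8) in naive CD4 T cells, 22.7 ± 10.8 in naive CD8, 21.6 ± 12.3 in effector CD8 and 14.8 ± 3.29 in other T cells. Naive CD4 T cells exceeded naive CD8 T cells in 6 of 8 mice (unadjusted p = 0.0312 by the exact sign-flip test, adjusted p = 0.531). In regulatory T cells of the 2 groups, summed over mice, Ctla4 gave 25 UMIs in 27 Control cells and 28 UMIs in 30 BG cells, and Tnfrsf4 gave 25 and 30. With 4 to 13 cells per mouse no test was run on this class. In other T cells Ctla4 was at 16.2, 12.7, 17.5 and 14.3 CPM in Control and at 13.1, 10.9, 12.7 and 21.0 CPM in BG mice. These overlapped, with a log2 fold change of -0.04 (95% interval from -0.47 to 0.39, edgeR adjusted p = 0.963), and in NKT cells it was -0.02 (from -0.49 to 0.46, adjusted p = 0.990). Fbxo33, Snhg5 and Ube2s were the genes most like Ctla4 (r = 0.89 each across 18 class means).

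PD-1, encoded by Pdcd1, is carried by activated T cells, among them cells that have met antigen repeatedly. At this depth Pdcd1 was close to the lower limit of detection in every class: 33 of 3722 NKT cells (0.887%) had a UMI in Control and 61 of 3197 (1.91%) in BG mice, at median depths of 2804 and 3469 UMIs. At 1500 UMIs per cell the shares were 0.355% and 0.886%. No UMI was seen in 2262 Control and 2573 BG endothelial cells, which allows shares of cells with a UMI of up to 0.133% and 0.117% by counting error alone and sets no limit on cells that express the gene, and 0.0497% and 0.0859% of B cells had one.

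Over the 8 mice Pdcd1 had means of 4.47 ± 1.71 CPM in other T cells, 4.15 ± 1.57 in NKT cells and 3.63 ± 0.93 in Cxcr6 T cells without Cd4 or Cd8 (SD, n = 8). ILC1s and effector CD8 T cells lay between these at 4.27 ± 5.86 and 4.10 ± 4.43 CPM, and no neighbours among these 5 classes differed (exact sign-flip p of 0.180 or more). NK cells, naive CD8 T cells, KCs, cDCs, monocytes and neutrophils gave no UMI. The NKT cells of the Control mice stood at 3.72, 2.24, 3.32 and 2.00 CPM of Pdcd1 and those of the BG mice at 4.78, 5.83, 6.02 and 5.31 CPM, on 15, 5, 9 and 5 and on 7, 23, 20 and 17 UMIs. All 4 BG mice lay above all 4 Control mice, as for 9.47% of the genes tested in NKT cells. The group means were 2.82 ± 0.83 and 5.49 ± 0.56 CPM (SD, n = 4 each), and the log2 fold change of 0.95 (95% interval from 0.34 to 1.55, edgeR unadjusted p = 0.00396) had an adjusted p of 0.0799, the lowest of any member, and was not called. Left without any 1 library, it lay between 0.83 and 1.14. Other T cells, at 7.15, 6.08, 2.70 and 2.56 CPM in Control and 5.97, 3.96, 3.70 and 3.66 CPM in BG mice, showed no such separation and did not pass the count filter. Over the summed T lineage the log2 fold change was 0.45 (95% interval from -0.01 to 0.90, adjusted p = 0.288). Il2ra, the high-affinity interleukin-2 receptor chain, had the profile most like that of Pdcd1 (r = 0.90 across 18 class means), before Dcaf15 and Nlrc5 (r = 0.87 each).

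LAG-3, which binds MHC class II, was found mainly outside the T cells. pDCs, the dendritic cells specialized in type I interferon, held 129 ± 21.2 CPM (SD, n = 8) of Lag3 and ILC1s 45.4 ± 10.2 CPM. The pDC level exceeded the ILC1 level in 8 of 8 mice, by 1.49 ± 0.46 on the log2(CPM + 1) scale, with the smallest p that 8 mice can give (0.00781, two-sided exact sign-flip test) and an adjusted p of 0.332. pDCs exceeded each of the 17 other tested classes in all mice with both classes. Effector CD8 T cells had 24.4 ± 26.1, cDC2s 16.7 ± 19.7, NK cells 8.73 ± 4.45 and NKT cells 2.07 ± 0.84 CPM. A Lag3 UMI was found in 36.2% of Control and 38.4% of BG pDCs, and in 18.5% and 18.2% after thinning to 1500 UMIs, against 0.132% and 0.0859% of B cells. The genes most like Lag3 were Ech1 (r = 0.87 across 18 class means), Srgap3 (r = 0.84) and Lgals1 (r = 0.81).

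In pDCs Lag3 was at 112, 92.6, 151 and 146 CPM in Control and at 156, 124, 123 and 125 CPM in BG mice. The groups overlapped, and BG replicate 5 stood above the other BG mice. The estimate was 0.02 (95% interval from -0.29 to 0.33, edgeR adjusted p = 0.996). ILC1s stood at 62.8, 44.9, 45 and 47.6 CPM in Control and 33.1, 32.8, 42.3 and 55 CPM in BG mice. BG replicates 5, 6 and 7 lay below all Control mice and replicate 8 among them, with a log2 fold change of -0.31 (from -0.83 to 0.21, edgeR adjusted p = 0.776).

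TIGIT, a receptor for the nectin-like protein encoded by Pvr, was too sparse to test in any class. Of its 48 UMIs, 13 came from ILC1s, 11 from other T cells and 9 from NKT cells. ILC1s had 3.85, 4.49, 5.62 and 0 CPM in Control and 0, 2.73, 8.46 and 6.60 CPM in BG mice, on 0 to 3 UMIs per mouse. The groups overlapped and no difference was detectable at this depth. Gzma, a granzyme of cytotoxic lymphocytes, was the gene with the closest profile (r = 0.85 across 18 class means), before Cited4 and Rgs1 (r = 0.82 each).

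TIM-3, encoded by Havcr2, was a gene of dendritic cells and monocytes here. cDC1s, which cross-present antigen to CD8 T cells, held 150 ± 32.4 CPM (SD, n = 8), patrolling monocytes 55.2 ± 35.5, cDC2s 46.8 ± 21.3, other monocytes and macrophages 22.5 ± 22.6, KCs 17.2 ± 11.4 (n = 7) and NKT cells 0.42 ± 0.62 CPM. The cDC1 level exceeded that of patrolling monocytes in 8 of 8 mice (by 1.68 ± 1.01 on the log2(CPM + 1) scale, exact sign-flip p = 0.00781, adjusted p = 0.332) and that of each of the other tested classes in all mice. A UMI was found in 43.6% of Control and 53.3% of BG cDC1s at median depths of 6547 and 6292, and in 14.9% and 18.8% after thinning. Atox1 (r = 0.94 across 18 class means), Ifi205 (r = 0.93) and Pid1 (r = 0.93) had the most similar profiles.

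The cDC1s stood at 115, 119, 175 and 128 CPM of Havcr2 in Control and at 120.3, 164, 194 and 181 CPM in BG mice. The ranges overlapped, with 2 BG mice above all Control mice, and the log2 fold change was 0.49 (95% interval from -0.03 to 1.00, edgeR adjusted p = 0.842) on 11 to 29 UMIs per mouse. Patrolling monocytes, at 22.8, 34.7, 14.7 and 69.2 CPM in Control and 59.3, 112, 96.9 and 31.9 CPM in BG mice, overlapped as well and did not pass the count filter. With KCs, monocytes, macrophages and both types of cDC summed, a grouping added after the results by class were known, Havcr2 was at 0.30 (from -0.11 to 0.71, adjusted p = 0.717).

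CD200R1 is the inhibitory receptor for CD200. Among the tested classes its gene was highest in ILC1s, at 85.2 ± 13.2 CPM (SD, n = 8). Effector CD8 T cells followed at 29.7 ± 18.9 and pDCs at 29.1 ± 7.91 CPM. The ILC1 level exceeded that of effector CD8 T cells in 8 of 8 mice (exact sign-flip p = 0.00781, adjusted p = 0.332). Basophils, which were not tested and are not in this order, gave 13 UMIs of Cd200r1 in 65 cells. This class held few UMIs of all genes, 7918 to 33816 per Control and 9190 to 33809 per BG mouse. In pDCs these totals were 364209 to 785693 and 203023 to 673805. The genes most similar to Cd200r1 were Ap1s1 (r = 0.73 across 18 class means), Klrb1b (r = 0.68) and Mfsd10 (r = 0.67). They were further from Cd200r1 than the closest genes were from any other member.

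ILC1s had 109, 80.8, 75.9 and 66.7 CPM of Cd200r1 in Control and 86.0, 82.0, 81.8 and 99.0 CPM in BG mice. All BG mice lay within the Control range, and the log2 fold change was -0.01 (95% interval from -0.41 to 0.39, edgeR adjusted p = 0.999). pDCs stood at 39.1, 29.8, 31.6 and 41.2 CPM in Control and 25.1, 25.9, 19.9 and 20.5 CPM in BG mice. Every BG mouse was below every Control mouse, as for 4.86% of the genes tested in pDCs, on 5 to 25 UMIs per mouse. There the estimate was -0.61 (from -1.14 to -0.08, edgeR adjusted p = 0.497) and was not called. Cd200, the gene of its ligand, was measured in the same pDCs at 91.2, 119, 92.4 and 80.6 CPM in Control and 70.2, 64.6, 77.5 and 59.9 CPM in BG mice. Those groups did not overlap either, and the log2 fold change was -0.51 (from -0.86 to -0.17, adjusted p = 0.256). In Cxcr6 T cells without Cd4 or Cd8 the Cd200r1 estimate was -0.75 (from -1.45 to -0.04, adjusted p = 0.346), and in other T cells it was 0.33 (from -0.17 to 0.84, adjusted p = 0.608), or -0.16 with stricter gates.

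PD-L1, encoded by Cd274, is the ligand among the members. Neutrophils had the highest mean of the tested classes, 110 ± 85.1 CPM (SD, n = 8), on 0 to 18 UMIs per mouse. B cells followed at 54.8 ± 8.38, KCs at 53.6 ± 23.7 (n = 7), other monocytes and macrophages at 45.2 ± 29.1, and ILC1s at 29.7 ± 11.7 CPM. Effector CD8 T cells, patrolling monocytes, endothelial cells, other T cells and NKT cells came next, with means from 24.3 down to 21.5 CPM. No neighbours in the order of all 18 classes differed at an unadjusted exact sign-flip p under 0.05. In cDC1s and cDC2s Cd274 was low, at 5.12 ± 5.75 and 5.22 ± 7.51 CPM. Basophils, which were not tested, stood at 0 and 53.1 CPM in Control and 34.3 and 112 CPM in BG mice. These are the libraries with 10 basophils or more, with at most 5 Cd274 UMIs each. Zcchc2 (r = 0.86 across 18 class means), Ncoa6 (r = 0.84) and Susd6 (r = 0.81) had the closest profiles.

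In endothelial cells Cd274 was at 33.0, 13.6, 12.2 and 9.94 CPM in Control and at 36.0, 20.8, 29.7 and 29.7 CPM in BG mice. Control replicate 1 lay within the BG range and stood apart from the other 3 Control mice, which were below every BG mouse. This was a log2 fold change of 0.79 (95% interval from 0.19 to 1.40, edgeR unadjusted p = 0.0130, adjusted p = 0.374) and was not called. Without Control replicate 1 it was 1.20 with an adjusted p of 0.0113 and was called, and without the filter on low counts it was 0.80 with an adjusted p of 0.0188 and was called. The share of endothelial cells with a Cd274 UMI was 3.32% in Control and 5.95% in BG mice, and 1.98% and 3.97% after thinning to 1500 UMIs. The 11 KC marker genes summed to 244 to 293 CPM in Control and 205 to 349 CPM in BG endothelial cells, and the 7 B-cell markers to 58.3 to 129 CPM and 46.5 to 612 CPM. Their part in the Cd274 values was not tested.

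B cells stood at 59.1, 48.4, 45.9 and 49.1 CPM of Cd274 in Control and at 64.3, 69.1, 51.4 and 51.1 CPM in BG mice, with a log2 fold change of 0.24 (95% interval from -0.04 to 0.52, edgeR adjusted p = 0.660). The groups overlapped through Control replicate 1. Patrolling monocytes had no Cd274 UMI in 3 Control mice and 27.7 CPM in the other, and 44.5, 37.2, 25.8 and 53.2 CPM in BG mice, on at most 5 UMIs per mouse, too few to pass the filter. KCs stood at 33.0, 46.7 and 73.6 CPM in Control and 29.2, 95.4, 41.0 and 56.6 CPM in BG mice, overlapping widely. In the remaining tested classes the log2 fold change was 0.25 in other T cells, 0.07 in NKT cells, -0.14 in ILC1s and -0.40 in Cxcr6 T cells without Cd4 or Cd8, with edgeR adjusted p of 0.539 to 0.946.

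**Figure D3:**
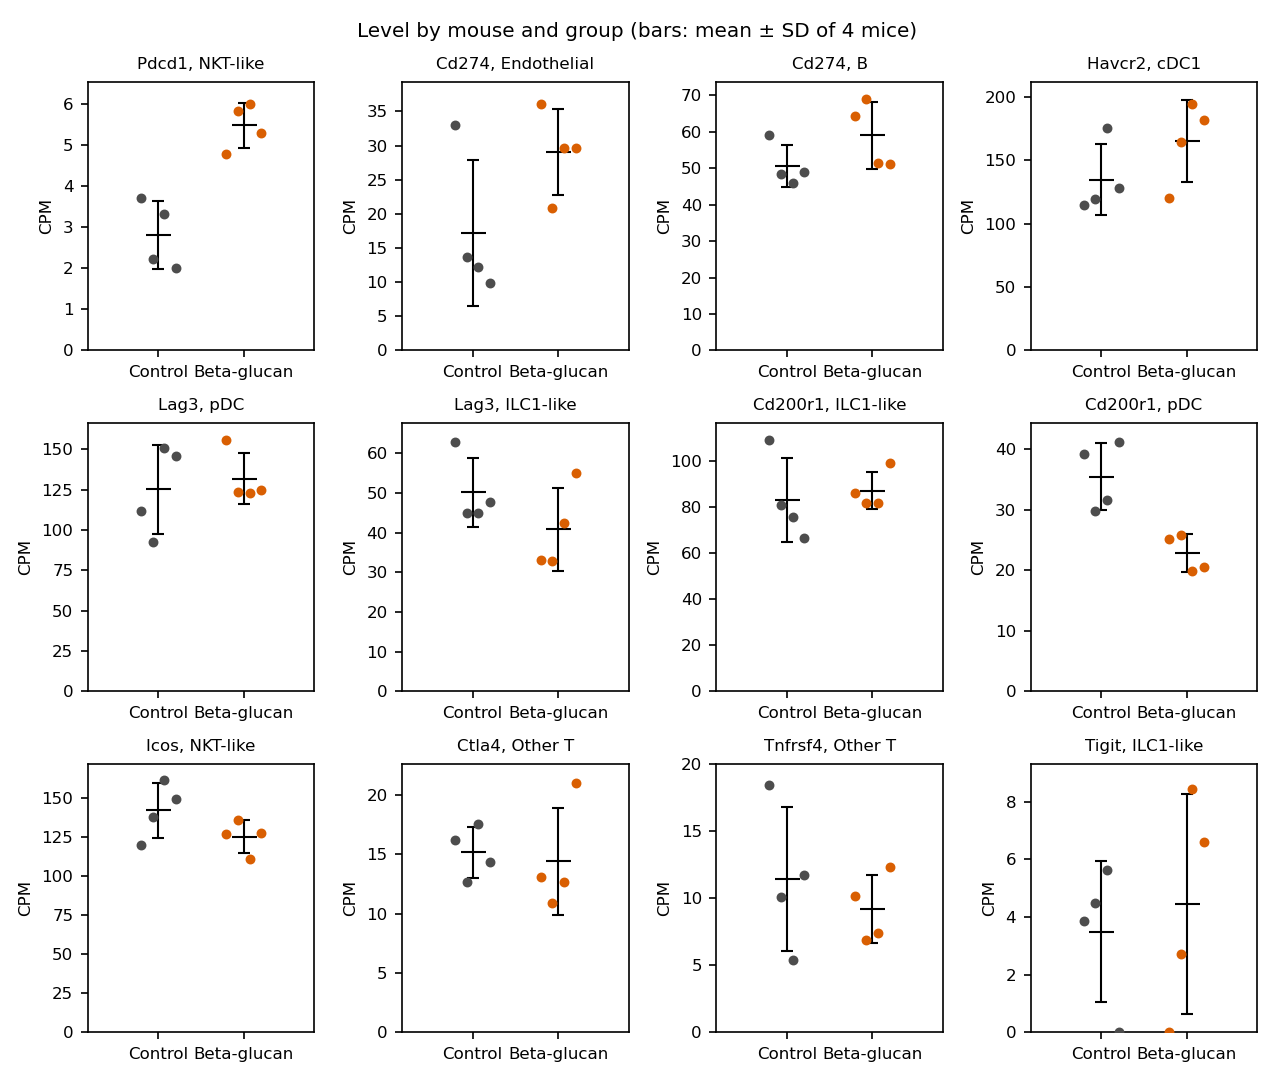
Level (CPM, linear axes) of selected member genes in the class named above each panel, 1 point per mouse, with bars for the mean ± SD of the 4 Control and the 4 Beta-glucan mice. For Pdcd1 in NKT cells (2.00 to 3.72 against 4.78 to 6.02 CPM) and Cd200r1 in pDCs (29.8 to 41.2 against 19.9 to 25.9 CPM) the groups do not overlap, and for Cd274 in endothelial cells Control replicate 1 (33.0 CPM) lies among the BG mice.

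Over the 18 classes, 33 of the 180 pairs of member and class passed the count filter, in 9 of the 10 members, and 0 were called by edgeR (adjusted p under 0.05 and a log2 fold change past 0.5). Over all genes and classes 1.63% of tests were called. In the classes with a tested member the share was 2.68% in NKT cells, 3.4% in Cxcr6 CD4 T cells, 1.92% in Cxcr6 T cells without Cd4 or Cd8, 0.797% in naive CD4, 0.063% in effector CD8 and 0.374% in naive CD8 T cells, 1.87% in other T cells, 0.9% in ILC1s, 2.85% in NK cells, 0.187% in cDC1s, 0.599% in pDCs, 1.28% in endothelial cells and 1.29% in B cells, and 2.71% and 0.817% in the summed T lineage and the summed macrophages, monocytes and cDCs. DESeq2 gave an adjusted p for 89 pairs and also called 0, against 0.574% of all its tests. At an unadjusted edgeR p under 0.05 there were 11 pairs, 9 with lower and 2 with higher levels after BG, or 33.3% against 11.5% of all tests. Of these, 7 were Cd28, measured in different cells of the same 8 mice. The groups did not overlap in 3 pairs (9.09%), against 6.87% of all tests. The log2 fold change was below 0 in 24 pairs and above 0 in 9, with a median of -0.12, and the medians of all genes in a class were between -0.02 and 0.02. The unadjusted 95% intervals reached 0.20 to 0.72 to either side of the estimate, and estimates further from 0 than that, such as Pdcd1 in NKT cells at 0.95, were still not called. Pairs that passed the filter are those with the most UMIs and do not stand for all 180.

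**Figure D4:**
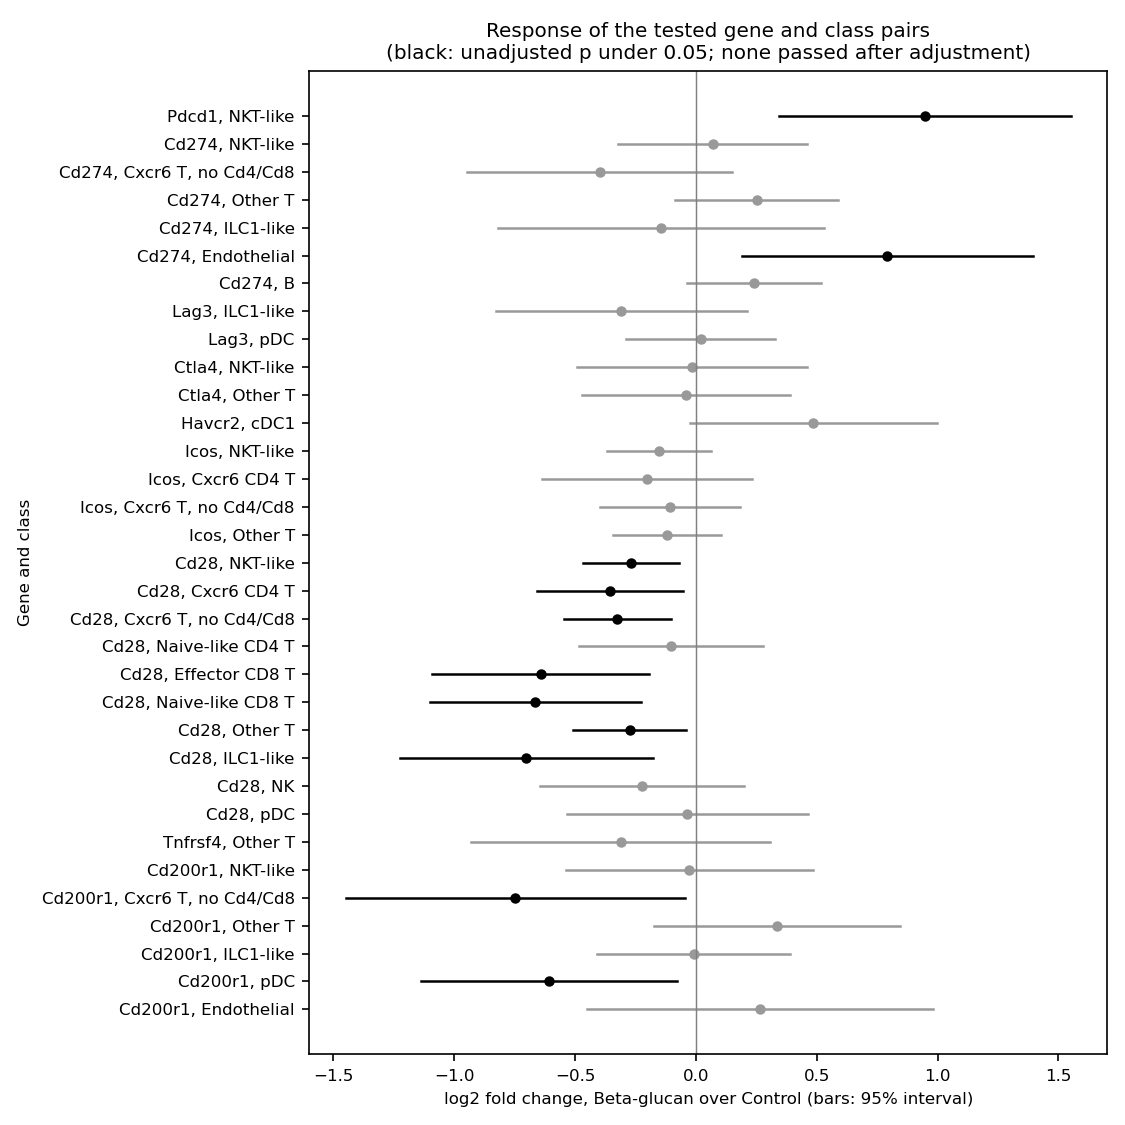
Log2 fold change, Beta-glucan over Control, with its 95% interval (edgeR) for each of the 33 tested pairs of gene and class, with pairs at an unadjusted p under 0.05 in black. The Cd28 pairs all lie left of 0 (-0.70 to -0.04), the Pdcd1 pair in NKT cells (0.95) lies furthest to the right, and no pair passed after adjustment.

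Responses were compared directly between 7 pairs of related classes with an interaction term, 6 of which held a tested member. In 21 tests of members 0 were called, by edgeR or by DESeq2, against 0% to 0.436% of all genes of a pair of classes. This share was 0.0628% for NKT against Cxcr6 CD4 T cells, 0.0958% for NKT cells against ILC1s, 0.0438% for ILC1s against NK cells, 0% for effector against naive CD8 T cells, 0.373% for Cxcr6 against naive CD4 T cells and 0.436% for KCs against endothelial cells. The 3 tests at an unadjusted edgeR p under 0.05 were Cd28 in NKT cells against ILC1s (log2 difference of 0.46, 95% interval from 0.01 to 0.90), Cd200r1 in ILC1s against NK cells (1.28, from 0.06 to 2.50) and Cd274 in KCs against endothelial cells (-1.37, from -2.65 to -0.09), all with an adjusted p of 0.717 or more. The comparison of KCs with endothelial cells was made without Control replicate 1, which held 9 KCs. In endothelial cells that mouse stood at 33.0 CPM of Cd274, with 9.94 to 13.6 CPM in the other Control mice. Of the 170 neighbouring classes in the orders of the 10 members, 0 differed after adjustment, 11 had an unadjusted exact sign-flip p under 0.05 and 4 reached the smallest p that 8 mice allow. The lowest adjusted p was 0.332, and with 8 mice and this number of tests an adjusted p under 0.05 was hardly within reach.

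Some of the genes around the members were called, and the counts are given by list. Of the 14 ligand genes, 11 were tested in at least 1 class, and of 72 tests 5 were called higher (6.94%) and 0 lower, against 1.39% and 0.244% of all tests. Transcription factors known to act on these genes were tested as well, of which Irf9 is described here. Further costimulatory receptors and their ligands gave 1 called lower of 100 tests, and further inhibitory receptors (72 tests) and proteins downstream of the receptors (176 tests) gave 0. The calls described here are those of Lgals9, Lgals3, Irf9 and Tnfrsf25. These lists were chosen with earlier results of these data known, and their counts are descriptions.

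Galectin-9, encoded by Lgals9, is a ligand of TIM-3 and accounted for 4 of the 5 called ligand tests. In endothelial cells Lgals9 was at 184, 173, 164 and 155 CPM in Control and at 339, 269.7, 326 and 263 CPM in BG mice. All BG mice lay above all Control mice, and the log2 fold change was 0.83 (95% interval from 0.60 to 1.07, edgeR adjusted p = 1.6e-04), with an adjusted p of 0.0767 at 10% mitochondrial UMIs or less. KCs stood at 99.1, 153 and 138 CPM in Control and at 360.2, 248, 307 and 283 CPM in BG mice, again without overlap, with a log2 fold change of 1.16 (from 0.62 to 1.71, adjusted p = 0.0234). The call was lost on leaving out either of 2 libraries, with an adjusted p of 0.100 without BG replicate 5 and 0.0643 without BG replicate 7, and also by DESeq2 (0.384), without the low-count filter (0.0524) and with thinned cells (0.0930). Control replicates 2, 3 and 4 could not be left out in turn, since a fit needed 3 Control libraries with 10 KCs or more.

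B cells rose from 54.7, 58.4, 48.7 and 49.1 CPM of Lgals9 to 88.8, 81.4, 73.7 and 75.9 CPM, by a log2 fold change of 0.62 (95% interval from 0.39 to 0.86, edgeR adjusted p = 0.00288), and the call was lost with cells thinned to 1500 UMIs (0.47, adjusted p = 0.118) and at 10% mitochondrial UMIs or less (0.49, adjusted p = 0.995). Cxcr6 CD4 T cells rose from 64.7, 57.3, 71.2 and 43.1 CPM to 97.5, 98.1, 133 and 123 CPM, by 0.91 (from 0.45 to 1.38, adjusted p = 0.0138), and the call was lost without Control replicate 1 or 4 or BG replicate 7 or 8 (adjusted p from 0.0534 to 0.0655) and by DESeq2 (0.257). The groups did not overlap in either class. NKT cells (0.30, edgeR adjusted p = 0.0608) and other T cells (0.35, adjusted p = 0.0552) did not pass although their groups were separate, and neither did pDCs (0.55), other monocytes and macrophages (0.47), NK cells (0.42), ILC1s (0.26), Cxcr6 T cells without Cd4 or Cd8 (0.29) or effector CD8 T cells (-0.12). In KCs, the B-cell marker genes summed to 114 to 413 CPM in Control and 22.6 to 144 CPM in BG mice, and the KC marker genes to 17166 to 29056 and 27997 to 30474 CPM. Cycling-cell genes summed to 156 to 333 and 637 to 1064 CPM there, and their part in the Lgals9 values was not tested. In the summed macrophages, monocytes and cDCs Lgals9 was at 1.19 (from 0.73 to 1.65, edgeR adjusted p = 0.0117).

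**Figure D5:**
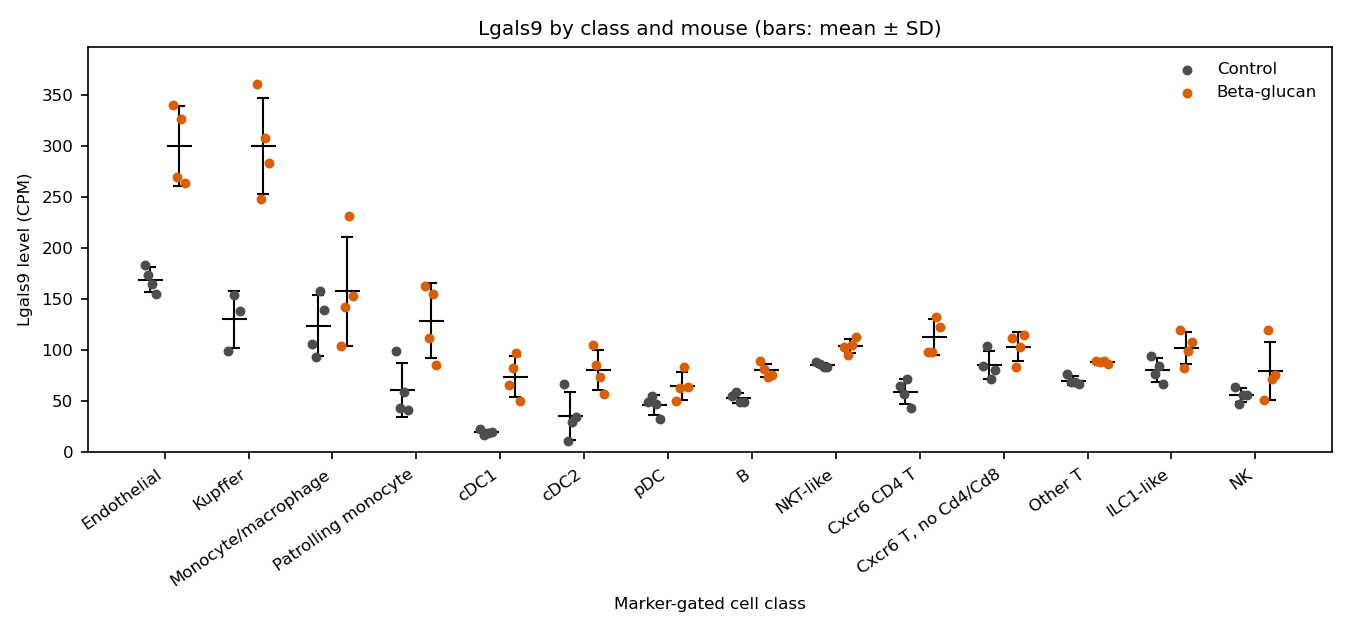
Lgals9 level (CPM, linear axis) by marker-gated class, 1 point per mouse, with bars for the mean ± SD of the Control and the Beta-glucan mice. In endothelial cells (155 to 184 against 263 to 339 CPM) and KCs (99.1 to 153, from 3 libraries, against 248 to 360.2 CPM) the groups do not overlap.

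Galectin-3, encoded by Lgals3 and a ligand of LAG-3, was called higher in NKT cells with a log2 fold change of 0.75 (95% interval from 0.36 to 1.15, edgeR adjusted p = 0.0281), and the call was lost without Control replicates 1, 3 or 4 or BG replicates 5, 7 or 8 in turn (adjusted p from 0.0506 to 0.133). It was lost as well by DESeq2 (adjusted p = 0.0632), with cells of up to 6000 genes (0.319) and at 10% mitochondrial UMIs or less (0.735). The other ligands were not called where tested. Cd86, a ligand of CD28 and CTLA-4, was at -0.01 (95% interval from -0.54 to 0.52) in KCs, -0.35 (from -0.94 to 0.24) in cDC1s and -0.03 (from -0.26 to 0.21) in B cells. Icosl was at 0.02 in B cells, Pdcd1lg2 at 0.42 in B cells and -0.22 in NKT cells, and in endothelial cells Pvr was at -0.52 (from -0.86 to -0.17, adjusted p = 0.240) and Nectin2 at 0.03 (from -0.24 to 0.30). Cd80 and Tnfsf4, the ligand of OX40, did not pass the count filter in any class.

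Irf9, a transcription factor that acts after type I interferon, was called higher in B cells (0.87), NKT cells (0.87), endothelial cells (0.75) and other T cells (0.67), with edgeR adjusted p from 2.6e-05 to 0.00164. At 10% mitochondrial UMIs or less the calls in B, endothelial and other T cells were lost (adjusted p of 0.533, 0.284 and 0.208). Tnfrsf25, a costimulatory receptor for the cytokine TL1A, was called lower in NKT cells, at -0.56 (95% interval from -0.83 to -0.29, adjusted p = 0.0169), a call lost without Control replicates 1 or 3 or BG replicate 7 (adjusted p from 0.0515 to 0.0700), by DESeq2 (0.0576), with stricter gates (0.252), with thinned cells (0.0630) and at 10% mitochondrial UMIs or less (0.192), while with cells of up to 6000 genes the log2 fold change of -0.49 missed the fold threshold.

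Promoters were read from RefSeq (GRCm38.p6) for the 6 members found there, Pdcd1, Cd274, Tigit, Ctla4, Havcr2 and Tnfrsf4, and for Lgals9, and searched on both strands from 250 bases before to 50 bases after the start site for GAAA followed after any 2 bases by GAAA, the core of the element bound by interferon regulatory factors, for TTCNNNGAA, bound by STAT dimers, and for TGANTCA, bound by AP-1. The 250 bases before the start are shown for Lgals9, the ligand with the most calls, for Cd274, the ligand among the members, and for Havcr2, the receptor of Lgals9, with matches in capitals.
Lgals9, chr11:78984925-78985174, minus strand: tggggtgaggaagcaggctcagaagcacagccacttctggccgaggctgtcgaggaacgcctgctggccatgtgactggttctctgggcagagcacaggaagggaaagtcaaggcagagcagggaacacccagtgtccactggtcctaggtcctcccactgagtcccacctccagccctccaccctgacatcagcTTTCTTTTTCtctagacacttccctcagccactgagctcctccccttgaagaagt
Cd274, chr19:29367188-29367437, plus strand: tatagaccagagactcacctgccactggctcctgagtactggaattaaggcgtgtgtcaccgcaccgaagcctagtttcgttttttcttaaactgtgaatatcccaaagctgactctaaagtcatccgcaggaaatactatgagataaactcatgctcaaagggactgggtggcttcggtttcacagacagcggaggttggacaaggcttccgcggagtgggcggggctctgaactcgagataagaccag
Havcr2, chr11:46454681-46454930, plus strand: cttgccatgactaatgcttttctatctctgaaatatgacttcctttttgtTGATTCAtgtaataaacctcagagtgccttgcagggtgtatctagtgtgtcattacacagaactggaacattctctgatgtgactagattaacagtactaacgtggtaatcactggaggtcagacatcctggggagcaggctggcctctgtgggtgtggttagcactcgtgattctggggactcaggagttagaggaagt
The Lgals9 window held the pair of GAAA on the reverse strand, read here as TTTCTTTTTC, 55 bases before the start, and a further match, TTTCTGTTTC, 15 bases after it. The Havcr2 window held TGATTCA 200 bases before the start, and the windows of Pdcd1, Cd274, Tigit, Ctla4 and Tnfrsf4 held none of the 3 motifs. Start sites were those of RefSeq. The Ctla4 window, chr1:60908775-60909074, lay within the GENCODE span of the gene and not at the start of that span. Over 32851 promoters of this length, 3.44% held the spaced pair of GAAA, 8.30% TTCNNNGAA and 7.81% TGANTCA. A match describes the letters in the window and does not show binding.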

How the data were processed

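Cells of 8 livers, each from a separate mouse, were profiled with 10x 3' v3.1 chemistry. Per the file headers the authors deposited UMI counts made with Cell Ranger 6.1.2 on mm10, with intronic reads counted, as 1 matrix of called cell barcodes per mouse, and every matrix was used. Cells with 200 to 2500 genes and at most 30% mitochondrial UMIs were kept, without a doublet caller, and cells with UMIs of other lineages' markers beyond 1, or beyond 1 per 5 own-marker UMIs, were left unclassed. The counts were summed per mouse and class. Libraries with 10 cells or more entered an edgeR (4.0.16) quasi-likelihood fit within each class, after filterByExpr and TMM scaling, with group as the sole term. Benjamini-Hochberg adjustment ran over all genes of the class, and calls needed an adjusted p under 0.05 and a log2 fold change past 0.5. Responses of 2 classes were compared by an interaction term with the mouse as block, and neighbouring classes by exact sign-flip tests over mice on log2(CPM + 1). DESeq2 (1.42.0), other scalings, filters, gates and depths and leaving out each library were alternatives. The scripts (R 4.3.3, Python 3.11.15) were tested on simulated data.

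Members and gene lists were chosen with earlier results of these data known, the marker cut-offs of the classes were set after their marker profiles had been viewed, and the 2 summed classes were added after the results by class had been seen. Named were all members, their 3 most similar genes, partner genes called in a class (at most 4 per list) and the ligands where tested. A further transcription factor is not reported here, nor is the count of its list, but counts over all partner genes include it. Coordinates came from GENCODE vM21. Intervals on summed UMIs cover counting error only.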

Additional observations from a re-analysis of the deposited data

Results flagged for a closer look

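Of the 66 groups of 4 mice examined for the tested pairs of member and class, 5 held a mouse far from the other 3 of its group by Dixon's criterion, which chance alone meets in about 1 of 20 groups. Cd274 in endothelial cells of Control replicate 1 was at 33.0 CPM, with 9.94 to 13.6 CPM in the other Control mice. Cd200r1 in endothelial cells of BG replicate 5 was at 19.0 CPM, with 7.95 to 9.21 CPM in the other BG mice. Lag3 in pDCs of BG replicate 5 was at 156 CPM, with 123 to 125 CPM in the others, and Lag3 in ILC1s of Control replicate 1 was at 62.8 CPM, with 44.9 to 47.6 CPM in the others. Cd28 in Cxcr6 T cells without Cd4 or Cd8 of BG replicate 6 was at 480.3 CPM, with 374 to 383 CPM in the others.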

How the results depend on the processing

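No paired analysis was possible because the 2 groups share no replicate numbers. Members called higher and lower numbered 0 and 0, and 1 and 1 without the low-count filter (Cd274 in endothelial cells and Cd28 in naive CD8 T cells). Leaving out 1 library gave 0 to 1 higher and 0 lower. Partner genes called higher numbered 17, with 11 by DESeq2, 2 at 10% mitochondrial UMIs or less, where 8 classes could be tested, 11 with stricter gates and 12 to 18 without 1 library. Partner genes called lower numbered 1, with 0 by DESeq2, 0 at 10% mitochondrial UMIs, 0 with thinned cells, 2 without the filter and 0 to 2 without 1 library. Members whose response differed between classes numbered 0 in every alternative run.

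Some estimates changed sign in an alternative, none of them called, among them Cd200r1 and Tnfrsf4 in other T cells, at 0.33 and -0.31 in the reported fit. With cells thinned to 1500 UMIs, Cd200r1 was at 0.13 in ILC1s and 0.37 in NKT cells, and Ctla4 at 0.071 in NKT and 0.17 in other T cells. DESeq2 gave 0.043 for Cd200r1 in ILC1s. Stricter gates gave -0.16 for Cd200r1 in other T cells, -0.0071 for Cd274 in NKT cells and 0.0049 for Icos in Cxcr6 CD4 T cells. At most 10% mitochondrial UMIs gave -0.15 for Cd274 in NKT cells, 0.10 for Icos in Cxcr6 T cells without Cd4 or Cd8 and 0.0071 for Icos in NKT cells. Cells with up to 6000 genes gave 0.12 for Ctla4 in NKT cells, and no scaling gave -0.019 for Lag3 in pDCs. Without 1 library, Cd200r1 lay between -0.092 and 0.24 in ILC1s and between -0.18 and 0.18 in NKT cells, Cd274 between -0.54 and 0.29 in ILC1s and between -0.14 and 0.21 in NKT cells, Cd28 between -0.18 and 0.027 in naive CD4 T cells and between -0.19 and 0.16 in pDCs, Ctla4 between -0.13 and 0.13 in NKT and between -0.30 and 0.083 in other T cells, Icos between -0.25 and 0.038 in Cxcr6 T cells without Cd4 or Cd8, Lag3 between -0.11 and 0.13 in pDCs and Tnfrsf4 between -0.55 and 0.062 in other T cells.

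Calls of Lgals9, Lgals3, Irf9 and Tnfrsf25 that an alternative ended are given with their values. The cause was not tested. The comparison of regulatory T cells with another class was not run, since too few libraries held 10 such cells. Depth limits Tigit, Pdcd1 outside NKT cells and all members in the rarer classes, in which they did not pass the filter.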
